A study of Rattus norvegicus with 16 samples.

Results

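The insulin-like growth factor system was described here through 10 genes in rat dorsal hairy skin before and after its sensory and autonomic nerves were cut. The genes were the ligands Igf1 and Igf2, the receptor gene Igf1r and the binding protein genes Igfbp1 to Igfbp7. They were listed by name, with earlier results of these data known, and all 10 were measured, by 22 probesets, among the 14217 genes of the series. Skin was taken from adult female Sprague-Dawley rats and measured on Affymetrix arrays, with 1 array per rat. The 6 naïve rats had no surgery. In the denervated groups, 5 rats at 7 days and 5 rats at 14 days, the cutaneous nerves of the T9/10 zone had been ligated and transected after an incision and reflection of the dorsal skin, and the rostral denervated zone was sampled. The paper states that nerves of a further zone were also cut and that the nerves between the zones were left intact. Axons of the intact nerves sprout into the denervated skin. The paper relates 7 and 14 days roughly to the start and the maintenance of that sprouting. No sham-operated group was analysed here, so surgery, denervation and sprouting cannot be told apart. All samples include the cutaneous trunci muscle, which lies under this skin and kept its own nerve supply.

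IGF-1 and IGF-2 are small secreted hormones related to insulin. Both signal mainly through the IGF-1 receptor, a tyrosine kinase that activates the PI3K and Akt pathway and the Ras and MAP kinase pathway. The binding proteins hold most of the IGF outside cells and can block or prolong its action, and proteases free the ligand by cutting them. In skin, dermal fibroblasts and the dermal papilla are known sources of IGF-1, keratinocytes carry the receptor, and IGF-1 is known to prolong the growth phase of the hair follicle. In muscle, IGF-1 and IGF-2 promote growth and regeneration.

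The arrays differed within groups in ways that touched several members. Markers of skin and of muscle were bright on every array, with the basal keratin Krt5 at 12.47 to 13.17 and the muscle actin Acta1 at 13.44 to 14.01 on the log2 scale of the deposited values. Some other markers varied more, such as the keratin Krt1 at 9.34 to 12.87 and the muscle myosin Myh4 at 8.96 to 13.08. A marker score is the mean over a list of each gene's log2 value minus its mean over all arrays. Naïve replicates 1 and 2 had hair follicle scores (9 of 17 markers measured) of 1.91 and 2.12, whereas naïve replicates 3 to 6 were at -4.30 to -4.03. The 7 day arrays were at -0.63 to 1.79 and the 14 day arrays at 1.92 to 2.02. Naïve replicates 4 and 5 had fibroblast scores (11 of 11 markers measured) of -1.17 and -1.94, while the remaining naïve scores were -0.27 to 0.14, compared with 0.20 to 1.03 at 7 days and -0.02 to 0.30 at 14 days. They were also lowest in macrophage markers, at -1.45 and -1.89. Skeletal muscle scores (18 of 19 markers measured) ran from -0.82 to 1.17 in naïve skin, from -0.69 to 0.59 at 7 days and from -0.91 to -0.39 at 14 days. In whole skin, fewer cells of a type and less RNA per cell cannot be told apart.

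Against naïve skin, 2 binding protein genes were higher at both times and the receptor gene was lower at 14 days. Limma, with Benjamini-Hochberg adjustment over all genes and a threshold of 0.05, called 2 of the 10 members higher and none lower at 7 days, where 7.85% of all genes were called higher and 2.66% lower. At an unadjusted limma p under 0.05, in either direction, 6 of the 10 passed at 7 days, 4 at 14 days and 3 between the times. The share of all genes passing that threshold is not given here, so these counts have no background. At 14 days 2 members were called higher and 1 lower, against 8.95% and 14.6% of all genes. Between the times, 1 member was called higher and 1 lower at 14 than at 7 days, against 8.86% and 10.1% of all genes. The median log2 difference of the members was 0.15 at 7 days and 0.17 at 14 days, beside -0.02 and 0.02 over all genes. No overlap between groups was seen for 2 members at 7 days, both higher, where 3.31% of all genes had it in that direction and 1.35% in the other. At 14 days it was seen for 2 members higher and 1 lower, against 3.69% and 6.66% of all genes, and between the times for 0 higher and 1 lower, against 9.07% and 11.6%. Of the 22 probesets tested singly, 2 were called higher and none lower at 7 days, against 6.66% and 2.06% of all probesets, then 2 higher and 1 lower at 14 days, against 9.11% and 15%, and 1 higher and 1 lower between the times, against 8.91% and 10.6%. With so few members, these counts show no more than which genes were called. Both comparisons with naïve skin use the same naïve arrays.

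**Figure D1:**
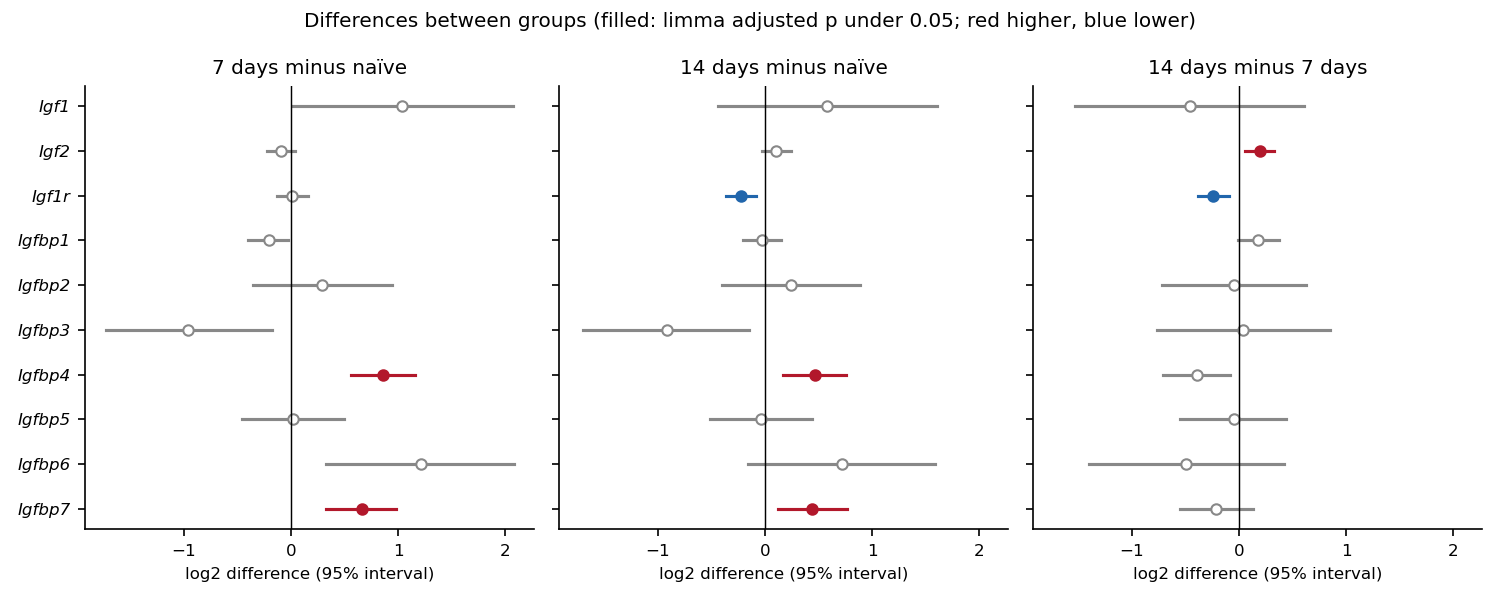
Log2 differences of the 10 members between groups, with 95% intervals from limma. Rows are genes and panels are the 3 comparisons, with filled points for an adjusted p under 0.05 (red higher, blue lower). Igfbp4 and Igfbp7 lay above 0 in both comparisons with naïve skin, and the intervals of Igf1, Igfbp3 and Igfbp6 were the widest.

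The sequences upstream of the 3 genes called against naïve skin are shown first, since Igfbp4 and Igfbp7 were each called higher at both times and Igf1r was called lower. Each is the stretch of 250 bases before the annotated start in RefSeq on GRCr8, 5′ to 3′ on the gene's strand. Capitals mark matches, on either strand, to the TATA box TATAAA, the GC box GGGCGG and the CCAAT box CCAAT. The search has no bearing on which factor binds.
Igfbp4, chr10:84491221-84491470, + strand: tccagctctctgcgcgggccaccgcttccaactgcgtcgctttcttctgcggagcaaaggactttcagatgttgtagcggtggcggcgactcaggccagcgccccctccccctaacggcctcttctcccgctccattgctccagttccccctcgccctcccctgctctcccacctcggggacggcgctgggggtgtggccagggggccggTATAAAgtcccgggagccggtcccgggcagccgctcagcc
Igfbp7, chr14:31091486-31091735, + strand: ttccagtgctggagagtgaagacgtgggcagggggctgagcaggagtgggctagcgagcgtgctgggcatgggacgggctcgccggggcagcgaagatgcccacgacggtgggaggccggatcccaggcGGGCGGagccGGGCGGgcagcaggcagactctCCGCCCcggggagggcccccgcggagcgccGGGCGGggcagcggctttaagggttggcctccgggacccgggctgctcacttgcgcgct
Igf1r, chr1:130959747-130959996, + strand: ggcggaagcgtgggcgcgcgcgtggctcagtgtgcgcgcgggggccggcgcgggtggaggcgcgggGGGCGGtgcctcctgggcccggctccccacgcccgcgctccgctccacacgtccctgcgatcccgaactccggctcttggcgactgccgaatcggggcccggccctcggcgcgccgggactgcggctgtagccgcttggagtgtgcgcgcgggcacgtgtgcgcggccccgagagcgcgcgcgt

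The windows of Igfbp4 and Igfbp7 had no motif in common. That of Igfbp4 held 1 TATA box, which began 40 bases before the start, and no GC box. That of Igfbp7 held 4 GC boxes, the nearest beginning 59 bases before the start, and no TATA box. The Igf1r window held 1 GC box. Over all 33469 annotated windows of this length, 12.9% held a TATA box, 30.5% a GC box and 34% a CCAAT box. Among the 10 members, Igfbp4 was the one with a TATA box in this window, while GC boxes also lay before Igfbp2 and before 1 of the 2 annotated starts of Igf2.

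Igfbp4 encodes a secreted binding protein that mostly inhibits IGF action until it is cut by the protease PAPP-A. Its naïve values had a lowest of 8.15, a median of 8.54 and a highest of 8.81. Arrays from 7 day skin read 9.40, 9.13, 9.64, 9.80 and 9.02, and those at 14 days read 9.01, 9.04, 9.04, 9.01 and 8.92. Every denervated array lay above every naïve array, at either time, while 7 and 14 days overlapped at their edges. The log2 difference was 0.86 at 7 days (standard error 0.14, limma adjusted p = 0.00335), a fold of 1.81, and 0.47 at 14 days (standard error 0.14, adjusted p = 0.0296), a fold of 1.38. The difference of -0.39 between 14 and 7 days missed the threshold (adjusted p = 0.0678).

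The rise of Igfbp4 at 7 days kept its call when any single array was left out, with log2 differences of 0.76 to 0.95. It was 0.72 without naïve replicates 4 and 5 (adjusted p = 0.0192). The call at 14 days was lost without those 2 arrays together (0.33, adjusted p = 0.145), and also without naïve replicate 4, 5 or 6 or any 1 of the 14 day arrays, where the difference stayed between 0.39 and 0.49. It was also lost with the muscle score (0.22, adjusted p = 0.503) or the hair follicle score (0.35, adjusted p = 0.317) as a covariate. Igfbp4 and the fibroblast score were both lowest in naïve replicate 5, at 8.15 and -1.94. Both were highest in 7 day replicate 4, at 9.80 and 1.03, but they did not order the 14 day arrays alike. Their association was not tested. With the fibroblast score as a covariate, chosen after seeing the data, the difference at 7 days was 0.47 (adjusted p = 0.329), and with the macrophage score, also chosen then, it was 0.46 (adjusted p = 0.448). Of the 11 fibroblast markers, 6 were themselves higher at 7 days and 2 at 14 days. Of the 16 macrophage markers measured, 13 were higher at 7 days and 2 at 14 days. Over all genes, 7.85% were called higher at 7 days and 8.95% at 14 days. Both scores differ between the groups themselves, so their part in the Igfbp4 values cannot be told apart from that of the group.

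Igfbp7 encodes a secreted protein of vessel walls and stroma, which binds IGF only weakly and also binds insulin. Its naïve values ran from 10.68 through a median of 11.43 to 11.64. At 7 days the arrays were at 11.87, 12.11, 11.99, 11.91 and 11.83, and at 14 days at 11.75, 11.74, 11.76, 11.75 and 11.67. The denervated groups were again wholly above the naïve group, but at 14 days the gap to naïve replicates 1, 2 and 3, at 11.63, 11.64 and 11.63, was small. All 14 day arrays also lay below all 7 day arrays, with a difference of -0.21 that was not called (adjusted p = 0.347). The log2 difference was 0.66 at 7 days (standard error 0.153, limma adjusted p = 0.0158), a fold of 1.58, and 0.44 at 14 days (standard error 0.153, adjusted p = 0.0471), a fold of 1.36. The 3 lowest naïve values belonged to replicates 5, 4 and 6, at 10.68, 10.92 and 11.23. Without replicates 4 and 5 the difference at 7 days was 0.41 (adjusted p = 0.0256) and that at 14 days 0.20 (adjusted p = 0.156).

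When single arrays were left out, the call of Igfbp7 at 7 days was kept each time, with differences of 0.53 to 0.73. The call at 14 days was kept only without naïve replicate 1, 2 or 3 and was lost without any other array, with differences of 0.32 to 0.46 where it was lost. The 7 day call was also lost with only naïve and 7 day arrays in the model (0.66, adjusted p = 0.0757) and with the hair follicle covariate (0.45, adjusted p = 0.0573). Endothelial marker scores (8 of 9 markers measured) were -0.57 to 0.23 in naïve skin, -0.10 to 0.67 at 7 days and -0.19 to -0.08 at 14 days. Of the 8 markers, 6 were called higher at 7 days and none at 14 days, against 7.85% and 8.95% of all genes. With the fibroblast score as a covariate the Igfbp7 difference at 7 days was 0.14 (adjusted p = 0.811), and with the macrophage score 0.11 (adjusted p = 0.932). At 14 days it was 0.15 with the muscle covariate (adjusted p = 0.679) and 0.13 with the hair follicle covariate (adjusted p = 0.707). The part of vessel content in the Igfbp7 values was not tested.

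**Figure D2:**
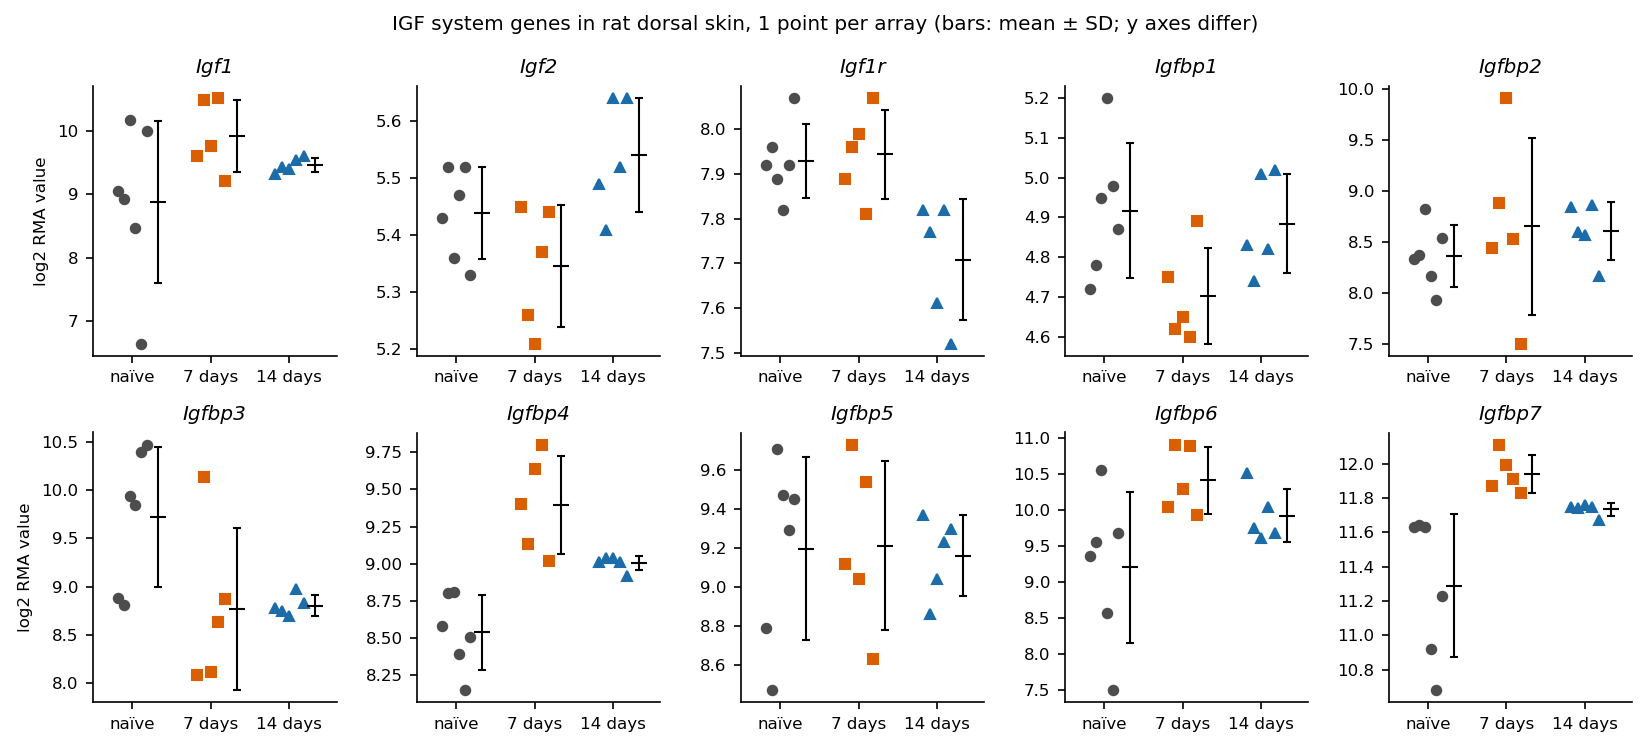
Log2 RMA values of the 10 members on each array, grouped as naïve (6), 7 days (5) and 14 days (5), with the mean and SD of each group beside the points. Igfbp4 and Igfbp7 did not overlap between naïve and denervated skin, Igfbp3 fell into separate levels among naïve arrays, and the scales of the panels differ.

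Igf1r, the gene of the IGF-1 receptor, was lower at 14 days by the median of its 2 probesets. Naïve values had a lowest of 7.82, a median of 7.92 and a highest of 8.07. Values at 7 days were 7.89, 7.96, 7.99, 7.81 and 8.07, and those at 14 days were 7.82, 7.77, 7.61, 7.82 and 7.52. The 14 day arrays lay just below the naïve ones, with their highest and lowest values equal to 2 decimals. The log2 difference from naïve skin was 0.01 at 7 days (adjusted p = 0.896) and -0.22 at 14 days (standard error 0.067, limma adjusted p = 0.0309), and that between 14 and 7 days was -0.24 (standard error 0.07, adjusted p = 0.032).

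The 2 probesets of Igf1r disagreed. Probeset 1392492_at was at 7.72 to 8.09 in naïve skin and 7.74 to 7.93 at 7 days, and at 7.61, 7.59, 7.35, 7.48 and 7.09 at 14 days, below every array of the other groups. Tested singly with adjustment over all 20826 probesets, it was at 14 days at -0.41 (standard error 0.0913, limma adjusted p = 0.00781). Probeset 1368123_at lay at 7.82 to 8.20 in naïve skin and 7.87 to 8.15 at 14 days, with a difference of -0.03 (standard error 0.0739, adjusted p = 0.801). The Igf1r call therefore rested on 1 of its probesets, and it was lost when the brighter probeset stood for the gene. Leaving out naïve replicate 5 or 6, or 14 day replicate 3 or 5, also removed the call, with differences of -0.22 to -0.17, as did leaving out naïve replicates 4 and 5 together (-0.25, adjusted p = 0.0647) and each of the 4 marker scores used as a covariate (-0.25 to -0.23, adjusted p from 0.0842 to 0.175). The call between 14 and 7 days was lost without 7 day replicate 2, 3 or 5 or 14 day replicate 3 or 5, within a range of -0.27 to -0.19 over all arrays left out in turn.

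Igf2, a fetal growth factor whose expression falls after birth in the rat, had 4 probesets, of which 3 were dim. The median over them placed Igf2 among the dimmest 25% of genes, at 5.33 to 5.52 in naïve skin. Values at 7 days were 5.45, 5.26, 5.21, 5.37 and 5.44, and those at 14 days were 5.49, 5.41, 5.64, 5.52 and 5.64. Igf2 differed from naïve skin by -0.09 at 7 days (adjusted p = 0.33) and 0.10 at 14 days (adjusted p = 0.226). Between 14 and 7 days it was 0.20 (standard error 0.0648, limma adjusted p = 0.0476). All values lay between 5.21 and 5.64, and this call was lost without any 1 of 10 arrays, namely naïve replicates 1, 3 and 4, 7 day replicates 2, 3 and 4 and 14 day replicates 1, 3, 4 and 5, with differences of 0.16 to 0.21.

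The remaining Igf2 probeset, 1367571_a_at, behaved differently. It was at 7.40, 7.12, 8.29, 9.20, 9.52 and 8.73 in naïve replicates 1 to 6, at 7.54, 8.08, 7.93, 7.88 and 7.97 at 7 days and at 7.20, 7.92, 7.57, 7.85 and 7.56 at 14 days. Naïve skin thus spanned 2.40 on the log2 scale, against 0.55 and 0.72 in the denervated groups. The difference was -0.50 at 7 days (adjusted p = 0.366) and -0.76 at 14 days (standard error 0.353, adjusted p = 0.123), opposite in sign to the median of the probesets at 14 days. The 4 naïve arrays that were highest on this probeset were those with skeletal muscle scores of 0.80 to 1.17, and naïve replicates 1 and 2, with scores of -0.03 and -0.82, lay near or below the lowest denervated arrays, at 7.40 and 7.12. The part of muscle content was not tested.

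**Figure D3:**
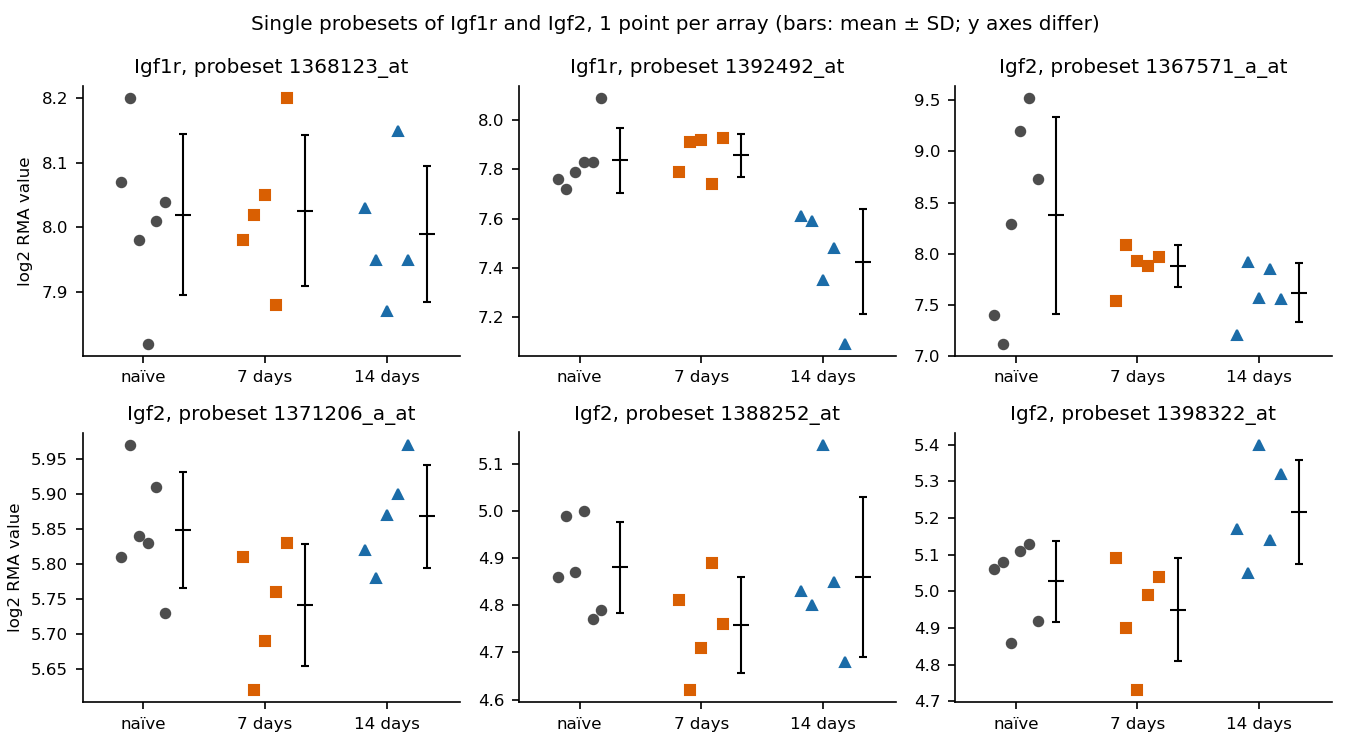
Log2 RMA values of the 2 probesets of Igf1r and the 4 probesets of Igf2 on each array, by group, with the mean and SD beside the points. The 14 day arrays lay below all others on Igf1r probeset 1392492_at and not on 1368123_at, and naïve arrays ran from 7.12 to 9.52 on Igf2 probeset 1367571_a_at. The scales of the panels differ.

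Igf1, the main growth factor of the group, varied more within naïve skin than between groups. Naïve replicates 1 to 6 were at 9.05, 8.93, 10.18, 8.47, 6.64 and 10.00. The 7 day arrays were at 9.61, 10.50, 9.77, 10.52 and 9.21, and the 14 day arrays at 9.33, 9.43, 9.40, 9.54 and 9.61. Replicate 5 lay far below every other array, and the 14 day arrays fell inside the naïve range. The log2 difference was 1.04 at 7 days (95% interval 0.02 to 2.07, limma adjusted p = 0.163) and 0.58 at 14 days (95% interval -0.44 to 1.61, adjusted p = 0.383). Without naïve replicates 4 and 5, which were lowest in fibroblast markers, the differences were 0.38 (adjusted p = 0.546) and -0.08 (adjusted p = 0.88). All 3 Igf1 probesets had their lowest value in naïve replicate 5, at 8.04, 4.21 and 6.64.

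Igfbp6 encodes a binding protein with a preference for IGF-2, and its values followed a similar course. In naïve replicates 1 to 6 it was at 9.37, 9.56, 10.56, 8.57, 7.50 and 9.69. At 7 days it was at 10.04, 10.91, 10.30, 10.89 and 9.93, and at 14 days at 10.52, 9.75, 9.62, 10.05 and 9.69. All 7 day arrays lay above every naïve array but replicate 3. The log2 difference of 1.21 at 7 days was the largest among the members and missed the threshold (standard error 0.41, limma adjusted p = 0.0708). It was 0.62 without naïve replicates 4 and 5 (adjusted p = 0.259), 1.33 without naïve replicates 1 and 2 (adjusted p = 0.0411) and 1.47 without naïve replicate 3 (adjusted p = 0.0199). At 14 days it was 0.72 (adjusted p = 0.204).

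Igfbp3 encodes the main carrier of IGF in blood, and in these arrays it divided naïve skin. Naïve replicates 1 and 2 were at 8.88 and 8.81, and replicates 3 to 6 at 9.94, 9.85, 10.40 and 10.47. Those of 7 day skin were at 8.08, 10.14, 8.11, 8.63 and 8.87, and the 14 day arrays at 8.78, 8.75, 8.69, 8.97 and 8.83. The 14 day arrays thus stood at the level of naïve replicates 1 and 2, the naïve arrays with high hair follicle scores and low muscle scores. At 7 days replicate 2 alone stood with the other naïve arrays. Both probesets showed this division. The log2 difference was -0.96 at 7 days (standard error 0.364, limma adjusted p = 0.0992) and -0.92 at 14 days (standard error 0.364, adjusted p = 0.0762), so neither was called.

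The call of Igfbp3 turned on which arrays were compared. Without naïve replicates 1 and 2 the differences were -1.40 (adjusted p = 0.00475) and -1.36 (adjusted p = 0.00374). Both also passed without naïve replicate 1 alone, naïve replicate 2 alone or the 7 day replicate 2, with differences of -1.30 to -0.92. Once the hair follicle score entered the model as a covariate, the difference at 14 days was 0.03 (adjusted p = 0.972), and with the muscle score it was 0.14 (adjusted p = 0.824). Muscle scores were -0.82 to -0.03 in naïve replicates 1 and 2, 0.80 to 1.17 in the other naïve arrays and -0.91 to -0.39 at 14 days. Since both scores separate the 14 day arrays from 4 of the 6 naïve arrays, hair follicle state, muscle content and time after denervation cannot be told apart in those arrays.

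**Figure D4:**
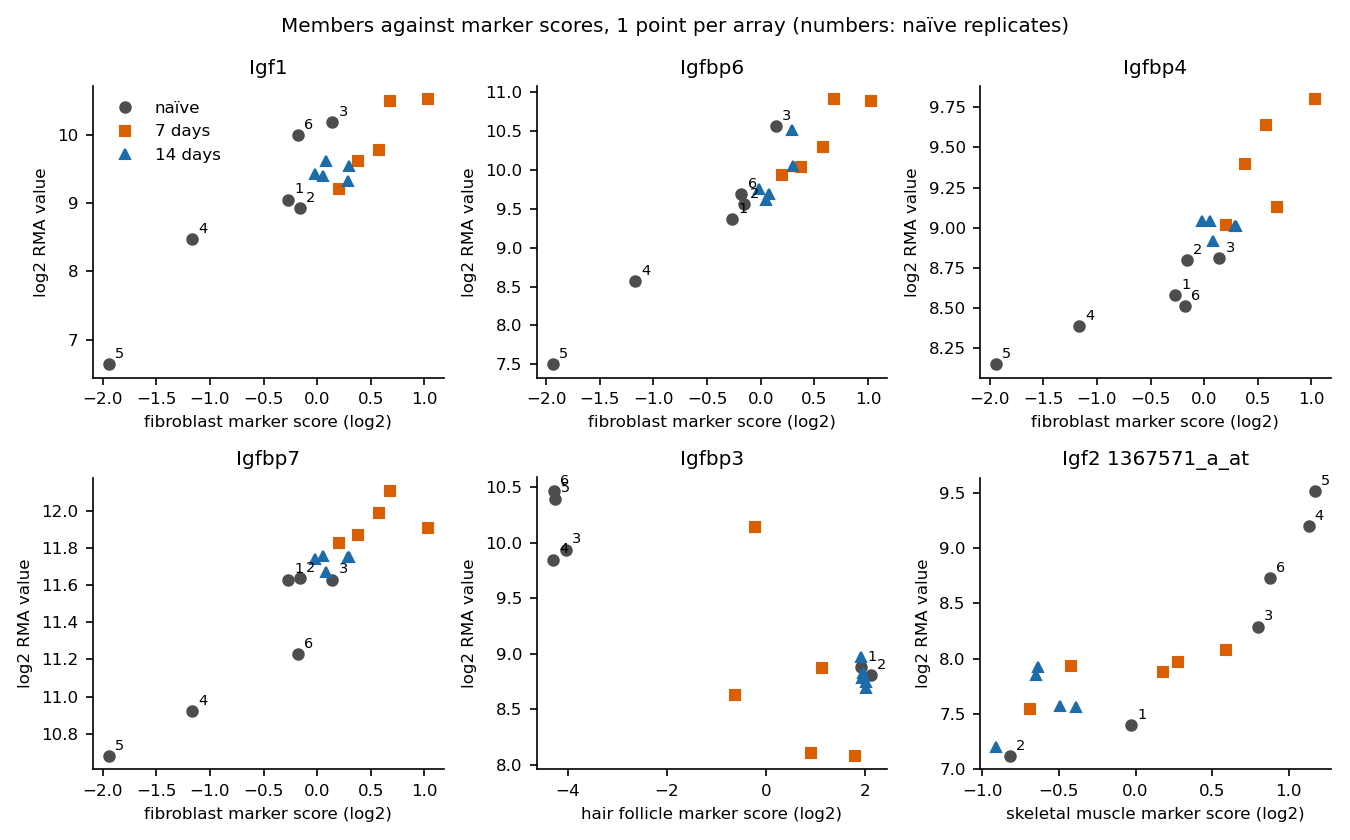
Values of 5 members, and of Igf2 probeset 1367571_a_at, on each array against the marker score of a cell type, with naïve arrays numbered by replicate. Igf1, Igfbp6, Igfbp4 and Igfbp7 were lowest in naïve replicate 5, which had the lowest fibroblast score of -1.94. Igfbp3 was at 8.81 and 8.88 in the naïve arrays with high hair follicle scores and at 9.85 to 10.47 in the others, and the Igf2 probeset was highest in naïve arrays with high skeletal muscle scores.

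Igfbp5, a binding protein held in the matrix and expressed in muscle and fibroblasts, showed the same split of naïve skin without a difference between groups. Naïve replicates 1 and 2 were at 8.79 and 8.47, and replicates 3 to 6 at 9.71, 9.47, 9.29 and 9.45. The 7 day arrays ran from 8.63 to 9.73 and the 14 day arrays from 8.86 to 9.37, and only 7 day replicate 2, at 9.73, lay outside the naïve range. The log2 difference was 0.02 at 7 days (95% interval -0.46 to 0.49) and -0.04 at 14 days (95% interval -0.51 to 0.44), so a change within those intervals is not excluded. None of its 5 probesets was called in any comparison.

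Igfbp2, a binding protein that also binds integrins, was uneven at 7 days. Naïve values ran from 7.93 through a median of 8.35 to 8.82. The 7 day arrays were at 8.44, 8.88, 9.91, 8.53 and 7.50, holding both the highest and the lowest value of all arrays, and the 14 day arrays were at 8.84, 8.60, 8.57, 8.86 and 8.16. Igfbp2 differed on the log2 scale by 0.29 at 7 days (95% interval -0.36 to 0.94, limma adjusted p = 0.539) and 0.24 at 14 days (95% interval -0.40 to 0.89, adjusted p = 0.575).

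Igfbp1, a binding protein made mainly in liver and regulated by insulin, was dim on all arrays, at 4.60 to 5.20, among the dimmest 25% of genes. Its log2 difference was -0.21 at 7 days (standard error 0.0861, adjusted p = 0.119) and -0.03 at 14 days (adjusted p = 0.819). Without naïve replicates 1 and 2 the former passed at -0.30 (adjusted p = 0.0163). At such values a probeset cannot show whether the transcript was present.

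In the RefSeq annotation of GRCr8, Igfbp2 and Igfbp5 are neighbouring protein-coding genes on chromosome 9, and Igfbp1 and Igfbp3 on chromosome 14. Igfbp5 was lower in naïve replicates 1 and 2 than in the other naïve arrays, while Igfbp2 in those replicates, at 8.33 and 8.37, lay inside the range of 7.93 to 8.82 of the others. Igfbp1 and Igfbp3 were both lower in naïve replicates 1 and 2 than in the others, at 4.72 and 4.78 against 4.87 to 5.20 for Igfbp1, though the gap was small for this dim gene.

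Beyond the members, 50 other genes of the pathway were measured, from a list arranged by role and drawn up with earlier results of these data known. At 7 days 9 were higher and none lower, which is 18% of the list against 7.85% of all genes called higher. At 14 days 5 were higher and 9 lower, or 10% and 18%, against 8.95% and 14.6% of all genes. Their median log2 difference was -0.04 at 7 days and 0.00 at 14 days. Without naïve replicates 4 and 5 2 were higher and none lower at 7 days, with 1 higher and 3 lower at 14 days, and without naïve replicates 1 and 2 the 7 day comparison gave 7 higher and 8 lower and the 14 day comparison 12 higher and 14 lower. The shares of all genes called in these fits are not given here, so these counts have no background. Of the 35 calls made over the 3 comparisons, 11 were kept whichever single array was left out, namely those of Htra1, Htra3, Shc1 and Ccn3 at 7 days, of Sos1, Pik3ca, Pdpk1 and Ccn3 at 14 days, and of Igf2r, Shc1 and Pik3r1 between the times, and each of the other calls was lost without at least 1 array.

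Genes of proteases known to cut binding proteins were among those called higher. Of 8 measured genes of such proteases and their inhibitors, 3 were higher at 7 days and none lower, where 7.85% of all genes were higher and 2.66% lower. Htra1, a secreted serine protease, was at 9.25 to 10.76 in naïve skin and 10.67 to 11.51 at 7 days, a log2 difference of 1.02 (standard error 0.233, limma adjusted p = 0.0141). Its relative Htra3 was at 6.80 to 7.81 in naïve skin and 7.38 to 9.40 at 7 days, a difference of 1.37 (standard error 0.291, adjusted p = 0.00997), and it was still higher at 14 days by 0.93 (adjusted p = 0.0337). Ctsd, the lysosomal protease cathepsin D, was at 0.45 at 7 days (adjusted p = 0.0164) and 0.34 at 14 days (adjusted p = 0.0358). Both Htra1 (9.64 and 9.25) and Ctsd (10.39 and 10.26) had their lowest values in naïve replicates 4 and 5. Without those 2 arrays the 7 day calls of Htra1 (0.71, adjusted p = 0.061), Htra3 (1.22, adjusted p = 0.0654) and Ctsd (0.34, adjusted p = 0.0925) were lost, and with the fibroblast covariate Htra1 was at 0.17 (adjusted p = 0.797). Adamts1, a metalloproteinase of the extracellular matrix, was lower at 14 days (-0.64, adjusted p = 0.0257). Stc2, the stanniocalcin gene whose product inhibits PAPP-A, was at -0.08 at 7 days and 0.39 at 14 days, neither called (adjusted p = 0.728 and adjusted p = 0.056), and was higher at 14 than at 7 days by 0.47 (adjusted p = 0.0387).

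Of the 3 related receptor genes measured, 1, Igf2r, was called higher at 7 days, where 7.85% of all genes were higher and 2.66% lower. None was called at 14 days, against 8.95% and 14.6% of all genes. Igf2r was also called lower at 14 than at 7 days (-0.42, limma adjusted p = 0.0179), where 10.1% of all genes were lower. Igf2r, the clearance receptor for IGF-2, was higher at 7 days by 0.35 (standard error 0.103, limma adjusted p = 0.041), at 9.46 to 10.05 against 8.99 to 9.38, and was at -0.07 at 14 days (adjusted p = 0.662). The call at 7 days was lost without naïve replicates 1 and 2 (0.28, adjusted p = 0.0529) and without naïve replicates 4 and 5 (0.41, adjusted p = 0.0813). Insr, the insulin receptor gene, was at -0.08 and -0.14 (adjusted p = 0.507 and adjusted p = 0.195). Igfals, which encodes the acid-labile subunit of the circulating IGF complex, was dim at 4.99 to 5.50 and was higher at 14 than at 7 days by 0.30 (adjusted p = 0.0222). None of the 3 genes of IGF2 mRNA-binding proteins was called in any comparison.

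Among the genes of growth hormone signaling, receptor adaptors and the PI3K and Akt pathway, 4 were higher at 7 days and none was lower, whereas at 14 days 7 were lower and 1 was higher, out of 29 measured. Over all genes, the shares called at 7 days were 7.85% higher with 2.66% lower, while those at 14 days were 8.95% higher with 14.6% lower. Shc1, an adaptor that links receptors to Ras, was at 7.85 to 8.31 in naïve skin and 8.52 to 9.40 at 7 days, with no overlap, a log2 difference of 0.73 (standard error 0.141, limma adjusted p = 0.00671), and was at 0.11 at 14 days (adjusted p = 0.6). Grb2, which joins it in that step, was at 0.26 at 7 days (adjusted p = 0.0334) by the median of its probesets but at 0.02 by their mean (adjusted p = 0.756) and 0.04 by the brightest (adjusted p = 0.801). Akt1 was at 0.32 (adjusted p = 0.0469) and Jak2, the kinase of the growth hormone receptor, at 0.53 (adjusted p = 0.0469). The calls of Akt1 and Jak2 were each lost in 13 of the 16 fits that left out 1 array. Both were also lost without naïve replicates 1 and 2 (adjusted p = 0.0681 and adjusted p = 0.0654). Without naïve replicates 4 and 5 they were lost too (adjusted p = 0.122 and adjusted p = 0.183). At 14 days Pdpk1, which activates Akt, fell by 0.43 on the log2 scale (standard error 0.0691, adjusted p = 0.00191), Pik3ca, a catalytic subunit of PI3K, by 0.37 (adjusted p = 0.00421) and Mtor by 0.26 (adjusted p = 0.0273). Stat5b, the transcription factor that induces Igf1 in liver, was at -0.63 (adjusted p = 0.0339), the adaptor genes Grb14 and Sh2b2 at -0.85 and -0.70 (adjusted p = 0.0281 and adjusted p = 0.0295) and Sos1, a Ras exchange factor, at -0.19 (adjusted p = 0.0148), while Pik3r2, a regulatory subunit of PI3K, was at 0.19 (adjusted p = 0.0266). Pik3r1, another regulatory subunit gene, was higher at 14 than at 7 days by 0.95 (adjusted p = 0.0181). Naïve replicates 1 and 2, which had low muscle scores and high hair follicle scores, were lowest of the naïve arrays in Stat5b at 7.23 and 7.17, in Grb14 at 5.95 and 5.99 and in Sh2b2 at 6.67 and 6.43, close to the 14 day ranges of 6.70 to 7.36, 5.68 to 6.07 and 6.21 to 6.70. With the skeletal muscle score as a covariate the differences at 14 days were -0.05 for Stat5b (adjusted p = 0.889), -0.14 for Grb14 (adjusted p = 0.743) and -0.18 for Sh2b2 (adjusted p = 0.672), none of them called. With the hair follicle score they were -0.03 (adjusted p = 0.925), -0.11 (adjusted p = 0.781) and -0.10 (adjusted p = 0.783), in the same order. Both scores set naïve replicates 1 and 2 apart from the other naïve arrays, so muscle content and hair follicle state cannot be told apart here.

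Of 6 measured genes of proteins once grouped with the binding proteins, 1 was higher at 7 days, and 2 were higher and 1 lower at 14 days, beside 7.85% of all genes higher at 7 days, and 8.95% higher and 14.6% lower at 14 days. Ccn3, a matricellular protein gene of the CCN family, was at 6.59 to 8.09 in naïve skin, 8.37 to 9.37 at 7 days and 8.09 to 8.91 at 14 days. It was higher by 1.27 at 7 days (standard error 0.26, limma adjusted p = 0.00866) and by 0.97 at 14 days (adjusted p = 0.0196). Its lowest values were in naïve replicates 4 and 5, at 7.09 and 6.59. Without those arrays the 7 day call was kept (0.94, adjusted p = 0.0331) and the 14 day call was lost (0.63, adjusted p = 0.0854). With the fibroblast covariate the difference at 7 days was 0.37 (adjusted p = 0.615). Ccn2, the connective tissue growth factor gene, was at -0.96 at 14 days (adjusted p = 0.0351), and Ccn1 was higher at 14 than at 7 days by 1.62 (standard error 0.463, adjusted p = 0.0276), with 14 day replicate 1 at 9.28 and the other 14 day arrays at 6.79 to 7.53. Igfbpl1, a gene related to the binding proteins, was dim at 4.57 to 4.86 and was called higher at 14 days (0.13, adjusted p = 0.0485).

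**Figure D5:**
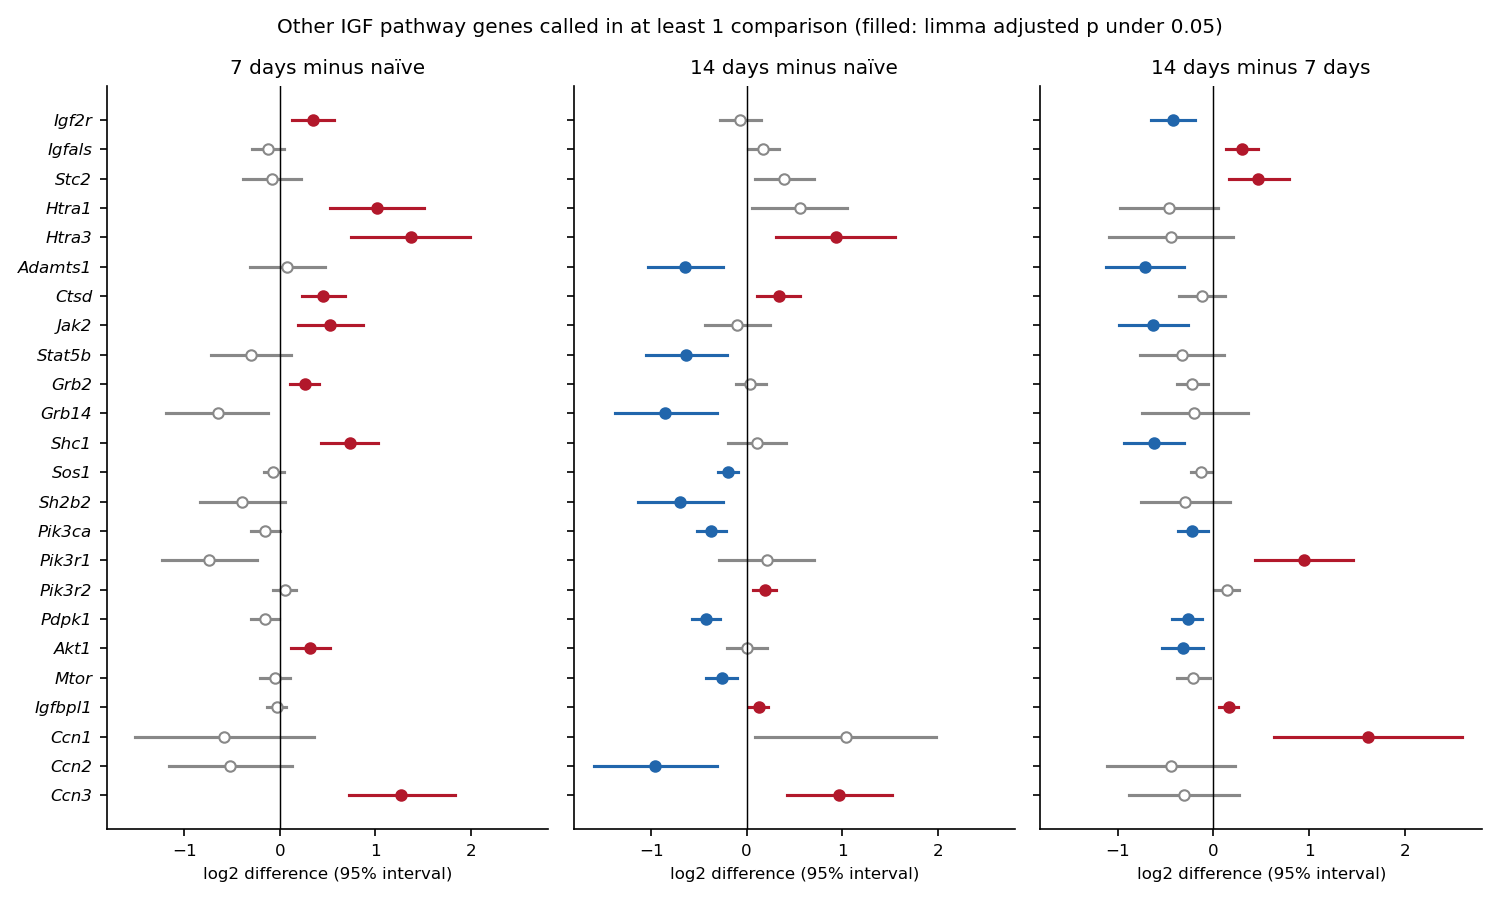
Log2 differences, with 95% intervals from limma, of the 24 other pathway genes called in at least 1 of the 3 comparisons. Rows are genes and filled points have an adjusted p under 0.05 (red higher, blue lower). Htra1, Htra3, Shc1 and Ccn3 lay furthest above 0 at 7 days among the called genes, and Grb14, Ccn2 and Sh2b2 furthest below 0 at 14 days.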

How the data were processed

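Skin from 16 rats had been hybridised to Affymetrix rat expression arrays, 1 array each. The authors deposited their values on the log2 scale after robust multi-array averaging (RMA), for 31099 probesets. The submitters' notes name R 3.0.1; the RMA release was not given in the sources used here. Following the methods of the paper, probesets that were controls (57), lacked a gene (9780) or named several (436) were removed and the rest, 20826, were reduced to 14217 genes by the median of each gene's probesets. Symbols came from the platform annotation. All 10 members were found in RefSeq of GRCr8, which also gave the upstream sequences.

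Group means were compared with limma 3.58.1 in R 4.3.3, all 16 arrays in a single model, two-sided, with empirical Bayes moderation and p-values adjusted by Benjamini-Hochberg across every gene at a threshold of 0.05. The text names every member, any other pathway gene past the threshold in at least 1 comparison, and Igf2r, Insr and Igfals. Members and lists were chosen with earlier results of these data known. The procedure was tested on simulated data. Other settings concerned the choice among probesets, dim genes, rescaling, weights, moderation, which arrays entered, a replicate block, marker score covariates and the threshold, and each array was left out in turn. Fibroblast and macrophage covariates were added after seeing the data. The labels name no batches. Precision is limited by how many arrays there were, and p-values measure the spread between these animals.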

Additional observations from a re-analysis of the deposited data

Results flagged for a closer look

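Among 105 groups of 5 or 6 arrays, 6 held a single array whose gap to the next was large for its group's range. Chance gives about 1 in 20. Such a gap could still be small on the log2 scale, as for Igfbp7 and Grb2. The lowest 14 day array of Igfbp7, replicate 5, was at 11.67 and the next at 11.74. The highest 7 day array of Igf2r, replicate 4, was at 10.05 and the next at 9.55. The lowest 7 day array of Stc2, replicate 5, was at 5.50 and the next at 5.96. At 14 days, replicate 5 was lowest in Adamts1 at 6.88, with the next at 7.40, and replicate 2 was lowest in Stat5b at 6.70, with the next at 7.21. Naïve replicate 6 was lowest in Grb2 at 8.40, with the next at 8.48.

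The difference between 14 and 7 days was tested directly by limma over all genes, as the difference between the effects at the 2 times, and 14 of the genes described here passed. Among all genes, 8.86% were called higher and 10.1% lower. Some pathway genes are described here because they passed in this comparison, so the count of 14 cannot be set against those shares. Genes higher at 14 days were Igf2 (0.20), Igfals (0.30), Stc2 (0.47), Pik3r1 (0.95), Igfbpl1 (0.16) and Ccn1 (1.62). Genes lower at 14 days were Igf1r (-0.24), Igf2r (-0.42), Adamts1 (-0.72), Jak2 (-0.63), Shc1 (-0.62), Pik3ca (-0.22), Pdpk1 (-0.27) and Akt1 (-0.32).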

How the results depend on the processing

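Counts of called members are given as higher and lower, without the share of all genes called under each setting. Leaving out each array in turn gave 2 to 3 and 0 to 1 at 7 days, 0 to 2 and 0 to 2 at 14 days, and 0 to 1 and 0 to 2 between 14 and 7 days. At a threshold of 0.01 there was 1 higher at 7 days and 0 in every other comparison and direction. A model of the compared groups alone gave 1 higher at each time, and 0 and 3 between the times. The hair follicle covariate gave 1 higher at 7 days, 0 and 0 at 14 days and 0 and 2 between the times, and the muscle covariate 0 and 0 at 14 days and 0 and 2 between the times. The fibroblast covariate, chosen after seeing the data, gave 0 higher at 7 days, 0 and 0 at 14 days and 0 higher between the times, and the macrophage covariate, also chosen then, gave 0 in all of these and 0 lower between the times. Array weights gave 1 lower at 7 days, 2 lower at 14 days and 2 lower between the times. Subtracted array medians gave 1 lower at 7 days and 0 lower between the times. Without naïve replicates 1 and 2 there were 2 lower at each time, and without 4 and 5 there were 0 and 0 at 14 days and 2 lower between the times. The brightest probeset gave 0 lower at 14 days and 0 and 0 between the times, a repeated quantile normalization 0 and 0 between the times, and the mean over probesets and the set without the dimmest 25% of genes 0 higher between the times. The cause of these shifts was not tested. The call of Igfbp4 at 7 days was lost only with the fibroblast and macrophage covariates, and its direction held under every setting run. Igf2 and Igfbp1 were among the dimmest 25% of genes, where the signal lies near the background of the arrays and small differences are least certain.

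Same-numbered arrays deviated from their group means with correlations of both signs (-0.552 to 0.583 between naïve and 7 day, -0.213 to 0.205 between naïve and 14 day and -0.226 to 0.29 between 7 and 14 day arrays). They showed no consistent pairing by number, though so few pairs cannot exclude it. With the replicate number as a block, 0 members were called in either direction at 14 days or between the times, and the Igfbp5 difference at 14 days was 0.01.

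Differences that changed sign were all uncalled in the main model except 1, that of Igf2 between 14 and 7 days, at -0.26 with the brightest probeset. At 7 days, Igf1 was at -0.70 with the fibroblast and -0.77 with the macrophage covariate, Igfbp6 at -0.33 and -0.48, Igfbp2 at -0.24 and -0.42, Igfals at 0.10 and 0.10, Igf1r at 0.00 and 0.00, and Igf2 at 0.03 with the latter. Igf1r was at -0.06 with subtracted medians and with quantile normalization, -0.02 with array weights and -0.01 without naïve replicates 4 and 5. Igfbp5 was at -0.06, -0.05 and -0.19 under the former 3, at -0.08 and -0.21 with the fibroblast and macrophage covariates and at -0.27 without naïve replicates 1 and 2. Insr was at 0.02 with the hair follicle covariate and with the brightest probeset. At 14 days, Igf1 was at -0.51 with the fibroblast covariate, -0.39 with the macrophage covariate and -0.08 without naïve replicates 4 and 5. Igf2 was at -0.14 with the mean over probesets and -0.76 with the brightest. Igfbp6 was at -0.25 and -0.19, and Igfbp2 at -0.09 and -0.14, with the fibroblast and macrophage covariates, and Igfbp2 at -0.01 with the muscle covariate. Igfbp1 was at 0.07, 0.06, 0.10 and 0.11 with the fibroblast, macrophage, hair follicle and muscle covariates and 0.06 without naïve replicates 4 and 5. Igfbp3 was at 0.03 and 0.14 with the hair follicle and muscle covariates, Igfbp5 at 0.58 and 0.47 and Igf2r at 0.12 and 0.09. Igfbp5 was at 0.05 without naïve replicates 4 and 5 and with quantile normalization and at 0.34 for the single probeset of the lowest p, Igf2r at 0.03 with quantile normalization, and Insr at 0.01 with the hair follicle covariate and 0.05 with the brightest probeset. Between 14 and 7 days, Igf1 was at 0.19 and 0.38, Igfbp6 at 0.09 and 0.29, Igfbp2 at 0.15 and 0.28 and Igfbp3 at -0.08 and -0.01 with the fibroblast and macrophage covariates. Igfbp2 was at 0.01 with subtracted medians and 0.08 with quantile normalization, Igfbp7 at 0.04 with the macrophage covariate, and Igfbp5 at 0.15, 0.05, 0.22 and 0.09 with the hair follicle, macrophage and muscle covariates and quantile normalization. Insr was at 0.02 with the brightest probeset and 0.01 with the muscle covariate. Leaving out single arrays changed signs within -0.02 to 0.05 for Igf1r, -0.02 to 0.58 for Igfbp2 and -0.13 to 0.16 for Igfbp5 at 7 days, -0.07 to 0.03 for Igfbp1 and -0.18 to 0.07 for Igfbp5 at 14 days, and -0.33 to 0.27 for Igfbp2, -0.13 to 0.38 for Igfbp3 and -0.20 to 0.08 for Igfbp5 between the times.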
